A study of Mus musculus with 22 samples.

Results

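The genes described here are 10 members of the bone morphogenetic protein (BMP) pathway, chosen by gene symbol from the 29367 genes of the count table. They are the ligands Bmp4, Bmp6 and Bmp7, the receptors Bmpr1a, Bmpr1b and Bmpr2, and the target genes Id1, Id2, Id3 and Id4. Their mRNA was measured on the ribosomes of mouse optic nerve astrocytes after a rise in intraocular pressure (IOP), in the unmyelinated optic nerve head (ONH) and the myelinated optic nerve proper (ONP). All 22 libraries came from ribotag mice (B6J.129(Cg)-Rpl22tm1.1Psam/SjJ) crossed to a constitutive GFAP-Cre line, whose strain name begins with B6.Cg-Tg and ends with 73.12Mvs/J. In these mice the mouse Gfap promoter drives Cre, so that ribosomes carry the HA tag in cells with Gfap promoter activity in the adult or earlier in their lineage. The mice were homozygous for the tagged Rpl22, aged 3 to 4 months, on a C57Bl/6 background, and labelled WT for genotype. Microbeads were injected into 1 eye to raise IOP, and every group used here was injected. The groups were the ONH at 7 days (4 libraries), the ONH at 30 days (7 libraries), the ONP at 7 days (4 libraries) and the ONP at 30 days (7 libraries). Tissue of 4 mice went into each library, with 2 of either sex, and by the study's methods the ONH and ONP were taken from the same animals. Uninjected (day 0) samples were not analysed here.

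BMPs are secreted ligands that bring type I receptors (such as Bmpr1a and Bmpr1b) and type II receptors (such as Bmpr2) together on the cell surface. The active receptor phosphorylates Smad1, Smad5 and Smad9, which enter the nucleus with Smad4 and switch on target genes, the Id genes among the best known. Id proteins lack a DNA-binding region and hold basic helix-loop-helix (bHLH) proteins away from DNA. In neural development this pathway is known for favouring astrocytes over oligodendrocytes, and in the adult optic nerve and trabecular meshwork it is studied in glaucoma.

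Libraries held 16292489 to 33307092 counts, and the lowest count of any member in any library was 39 (Bmp6), so every member was well above the limit of 3 counts (0.0901 to 0.184 CPM, counts scaled by library size). Levels are given as CPM after TMM normalization, and p-values are from edgeR's quasi-likelihood test, adjusted by Benjamini-Hochberg over every gene in the fit. The markers of the labelled cell type were present, as Gfap stood at 8430 to 23281 CPM, and the 10 astrocyte markers summed to between 14645 and 34046 CPM. Oligodendrocyte markers (10 genes, no defining marker at 0) were also abundant. They summed to 19298 to 36832 CPM in the ONH at 7 days, 13870 to 41190 in the ONH at 30 days, 82576 to 110811 in the ONP at 7 days and 26364 to 86196 in the ONP at 30 days. In the ONH, photoreceptor markers (5 genes) summed to between 100.4 and 5769 CPM and pigment cell markers (6 genes) to between 239 and 1190 CPM, against at most 128 and 139 CPM in the ONP. Of the defining markers of these lists, Pde6b (photoreceptors), Rpe65, Tyrp1 and Mlana (pigment cells) were at 0 in at least 1 library. Each library held RNA pulled down with tagged ribosomes from pooled tissue. Fewer cells of a type, less RNA per cell and less of it pulled down therefore cannot be told apart.

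The reference sequence from the 250 bases before the start site is shown for the 4 members that were lower in the ONH than in the ONP at 30 days, since they share the direction of that call. The sequences are from RefSeq (GRCm38.p6), which gave a start site for 8 of the 10 members and none for Id1 or Bmp7. Each is written on the strand of its gene, 5′ to 3′, and only bases in no annotated exon are printed. For Id2 these are the 89 bases farthest from the start site, and the 161 nearest to it, which lie in exons, are left out. Capitals mark GGCGCC, a GC-rich element, and CAGAC, a Smad-binding element (read on either strand, as CAGAC or GTCTG), both of which are known from Id gene promoters. The motifs do not overlap each other.
Bmp4, chr14:46390670-46390919, minus strand, upstream of the gene: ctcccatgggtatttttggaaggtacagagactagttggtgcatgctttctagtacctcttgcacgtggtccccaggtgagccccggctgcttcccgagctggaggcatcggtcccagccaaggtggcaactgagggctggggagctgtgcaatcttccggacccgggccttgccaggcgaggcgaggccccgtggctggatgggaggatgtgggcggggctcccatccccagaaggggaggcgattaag
Bmpr1b, chr3:141982265-141982514, minus strand, first of 3 RefSeq start sites, inside the span of the gene and in no exon: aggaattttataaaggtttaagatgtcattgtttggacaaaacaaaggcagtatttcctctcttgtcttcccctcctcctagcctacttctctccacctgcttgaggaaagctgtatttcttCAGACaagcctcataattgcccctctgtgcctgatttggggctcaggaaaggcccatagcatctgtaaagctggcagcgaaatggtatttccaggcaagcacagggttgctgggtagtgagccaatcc
Id2, chr12:25096254-25096342, minus strand, inside the span of the longest gene model and in no exon: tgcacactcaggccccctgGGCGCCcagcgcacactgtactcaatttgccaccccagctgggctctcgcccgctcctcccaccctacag
Id4, chr13:48260866-48261115, plus strand, upstream of the gene: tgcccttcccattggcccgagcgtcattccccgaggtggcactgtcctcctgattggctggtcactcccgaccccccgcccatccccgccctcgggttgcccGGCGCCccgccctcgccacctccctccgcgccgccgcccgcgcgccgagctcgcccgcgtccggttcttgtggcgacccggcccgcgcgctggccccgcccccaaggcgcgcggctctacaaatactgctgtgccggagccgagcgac
GGCGCC was present once before Id2, 231 bases before the start site, and once before Id4, 148 bases before it. CAGAC was found once in the Bmpr1b window printed. The window of the second Bmpr1b start site also held it once, as GTCTG, and that of the third did not, and the Bmp4 window held neither motif. Among members not printed, the windows of Bmpr1a (not called at 30 days) and Bmpr2 (higher in the ONH) each held GGCGCC once. The Bmp6 window held CAGAC once, and the Id3 window held it at 2 places. These windows include exon bases. Of 32851 windows of 250 bases before RefSeq start sites, 9.59% held GGCGCC and 42.2% held CAGAC. These matches describe the letters only.

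To compare genes with each other, levels were divided by the length of the longest transcript (CPM per kb). The Id genes stood far above the ligands and receptors. Per kb, the 4 Id genes summed to 813 ± 327 (SD, n = 4) in the ONH at 7 days, 962 ± 210 (n = 7) in the ONH at 30 days, 691 ± 136 (n = 4) in the ONP at 7 days and 1232 ± 294 (n = 7) in the ONP at 30 days. The 3 ligands summed to between 17.4 and 44.2 CPM per kb as group means, and the 3 receptors to between 14.5 and 25.9. The highest ligand mean, in the ONH at 7 days, had an SD of 45.7, with libraries from 10.7 to 109 CPM per kb. Id3 was the highest member per kb in all 4 groups and made up 65.0% to 72.6% of the summed Id level. Its level was 531, 698, 470 and 801 CPM per kb in the same order of groups. Per kb of all exons merged it was 379, 498, 335 and 572, still the highest member, with a lower share of the Id level. The share of Id2 was 9.16% in the ONH at 7 days, 10.99% in the ONH at 30 days, 15.5% in the ONP at 7 days and 18.8% in the ONP at 30 days. The share of Id1 ran the other way, at 15.8%, 10.9%, 10.7% and 6.29% in the same order of groups. Among the ligands, Bmp7 made up 66.0%, 58.9%, 64.1% and 44.2% of the summed level, while Bmp4 reached 46.4% in the ONP at 30 days. Among the receptors, Bmpr2 contributed between 4.95% and 11.97%, and the type I receptors Bmpr1a and Bmpr1b the rest. These shares are descriptions of levels per kb and were not tested.

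For each member the 4 groups were put in order of their mean CPM, which gave 30 pairs of neighbouring groups. In none of the 30 pairs were the ranges of the libraries apart. The means differed by more than the larger SD in 5 pairs. These were Bmpr1b (ONP at 7 days above ONH at 30 days), Bmpr2 (ONH at 30 days above ONP at 7 days), Id1 (ONH at 30 days above ONP at 30 days) and, in 2 pairs, Id2 (ONP at 30 days above ONP at 7 days, and ONH at 30 days above ONH at 7 days). Bmp4, Bmp6, Bmp7, Bmpr1a, Id3 and Id4 had no neighbouring groups that differed by more than their spread.

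Bmp4 is a ligand with well known roles in the development of the eye and in glial fate. In the ONH at 7 days the 4 libraries (numbered 1, 3, 5 and 6 in the table) held 18.4, 5.90, 11.1 and 46.7 CPM, and at 30 days the lowest, median and highest of 7 libraries were 4.57, 9.40 and 19.7 CPM. In the ONP at 7 days (libraries 1, 2, 5 and 6) the values were 10.03, 15.5, 11.9 and 25.6 CPM, and at 30 days 13.4, 25.8 and 45.5 CPM as lowest, median and highest. At 30 days 5 of 7 ONH libraries lay below every ONP library, and at 7 days the regions overlapped. Bmp7, a ligand of another BMP subgroup, was at 100.1, 24.3, 23.6 and 280.1 CPM in the ONH at 7 days and at 19.97, 25.6 and 83.8 CPM (lowest, median, highest) at 30 days. In the ONP it was at 39.2, 73.5, 29.6 and 123 CPM at 7 days and at 11.6, 34.4 and 85.6 CPM at 30 days. The groups overlapped widely, and library 6 of the ONH at 7 days was the highest of all 22 for Bmp7. Bmp6, of the same subgroup as Bmp7, was the lowest ligand, with group means between 7.17 ± 3.86 CPM (SD, n = 7, ONH at 30 days) and 18.3 ± 14.6 CPM (n = 4, ONH at 7 days) and a range of 2.20 to 37.8 CPM. Library 6 of the ONH at 7 days was also the highest for Bmp4 and Bmp6, and it held the highest sums of fibroblast (2002 CPM), pigment cell (1190 CPM) and photoreceptor (5769 CPM) markers. The part of these cells in the ligand levels was not tested.

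Bmpr1b, a type I receptor, was at 43.9, 41.4, 19.9 and 26.5 CPM in the ONH at 7 days and at 24.5, 34.7 and 57.8 CPM (lowest, median, highest) at 30 days. In the ONP it was at 60.2, 59.5, 60.4 and 46.9 CPM at 7 days and at 36.5, 77.4 and 110.3 CPM at 30 days. At 7 days every ONP library was above every ONH library, while at 30 days the regions overlapped, with 4 of 7 ONH libraries below all ONP libraries. Bmpr2, the type II receptor, was at 17.6, 10.6, 24.2 and 17.2 CPM in the ONH at 7 days and at 18.6, 25.8 and 38.9 CPM at 30 days. In the ONP it was at 16.02, 24.1, 14.5 and 17.9 CPM at 7 days and at 10.5, 15.4 and 23.9 CPM at 30 days. At 30 days 5 of 7 ONH libraries were above every ONP library. Bmpr1a, the other type I receptor, had group means of 41.6 ± 19.97 CPM (n = 4, SD) for the ONH at 7 days, 52.1 ± 12.8 (n = 7) in the ONH at 30 days, 41.8 ± 13.9 (n = 4) in the ONP at 7 days and 65.0 ± 16.03 (n = 7) in the ONP at 30 days. Its libraries ran from 23.8 to 93.8 CPM and overlapped in every comparison.

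**Figure D1:**
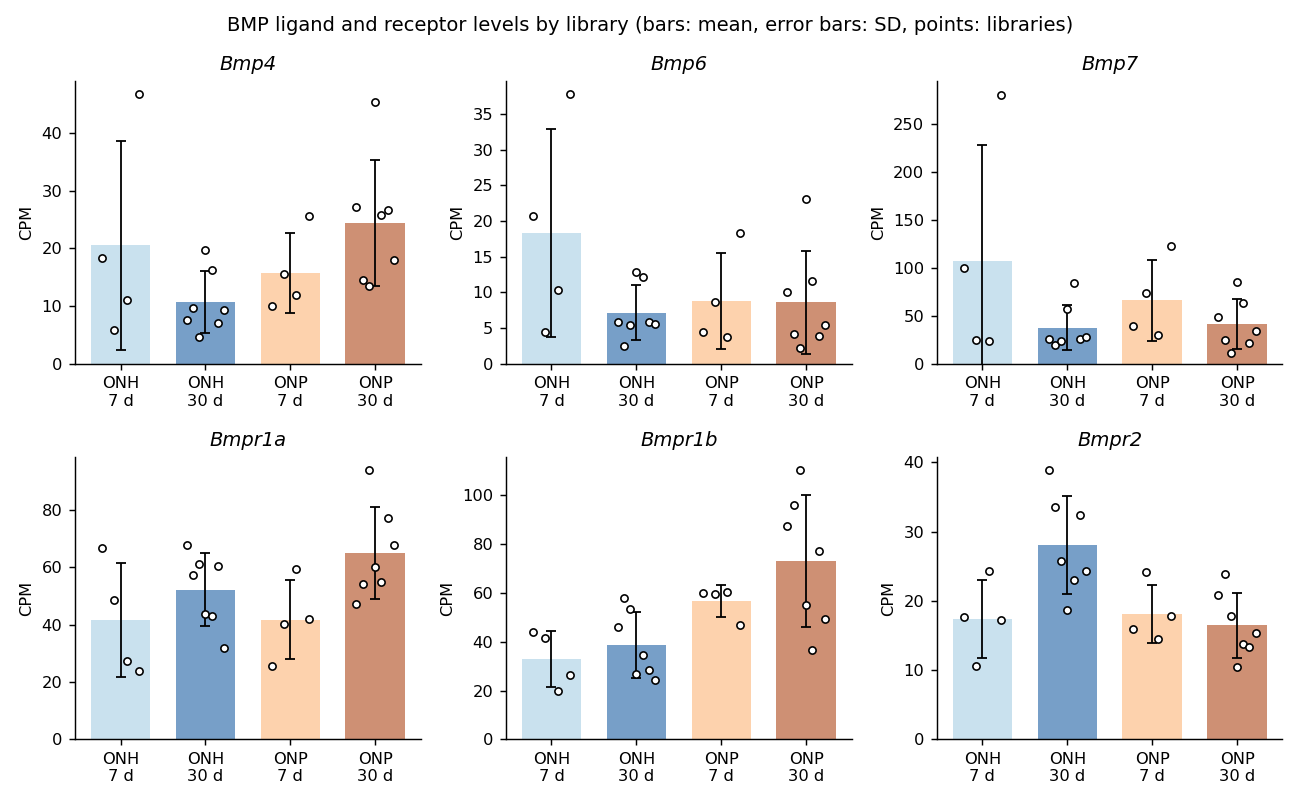
Levels of the 3 BMP ligands and 3 receptors in CPM (vertical axis, from 0) in the ONH and ONP at 7 and 30 days (7 d, 30 d). Bars are group means, error bars are SD and points are libraries (n = 4 at 7 days, n = 7 at 30 days). Bmp7 reached 280.1 CPM in 1 ONH library at 7 days. Mean Bmpr1b was higher in the ONP at both times, though edgeR called the difference at 30 days only. Bmpr2 at 30 days was higher in the ONH.

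The Id genes differed in pattern. Id1, an early target of BMP signals, was at 128, 128, 237 and 105 CPM in the ONH at 7 days and at 88.9, 113 and 184 CPM (lowest, median, highest) at 30 days. The ONP held 95.9, 81.7, 97.4 and 66.9 CPM at 7 days, and at 30 days its lowest, median and highest were 63.6, 95.7 and 105 CPM. At 7 days every ONH library was above every ONP library for Id1, and at 30 days 6 of 7 ONH libraries were above every ONP library. Id2, which is widely expressed in glia, was at 150.4, 129.6, 192 and 114 CPM in the ONH at 7 days and at 182, 204 and 254 CPM at 30 days. In the ONP it was at 242, 218, 267 and 118 CPM at 7 days and at 226, 415 and 692 CPM at 30 days. In the ONP 6 of 7 libraries at 30 days lay above all libraries at 7 days, and 5 of 7 ONH libraries at 30 days lay below all ONP libraries of that time.

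Id3, the most abundant member, was at 414, 596, 1175 and 527 CPM in the ONH at 7 days and at 720.4, 836 and 1371 CPM (lowest, median, highest) at 30 days. The ONP held 558, 606, 748 and 490.2 CPM at 7 days, and at 30 days its lowest, median and highest were 621, 1093 and 1335 CPM. In the ONP 6 of 7 libraries at 30 days were above all libraries at 7 days, and the regions overlapped at both times. Id4, known for its part in neural precursors and glial differentiation, was at 388, 539, 245 and 48.8 CPM in the ONH at 7 days and at 109, 209.9 and 318 CPM at 30 days. In the ONP it was at 101, 103, 256 and 153 CPM at 7 days and at 155, 441 and 791 CPM at 30 days. In the ONP 5 of 7 libraries at 30 days were above all libraries at 7 days, and library 6 of the ONH at 7 days was the lowest of all 22.

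**Figure D2:**
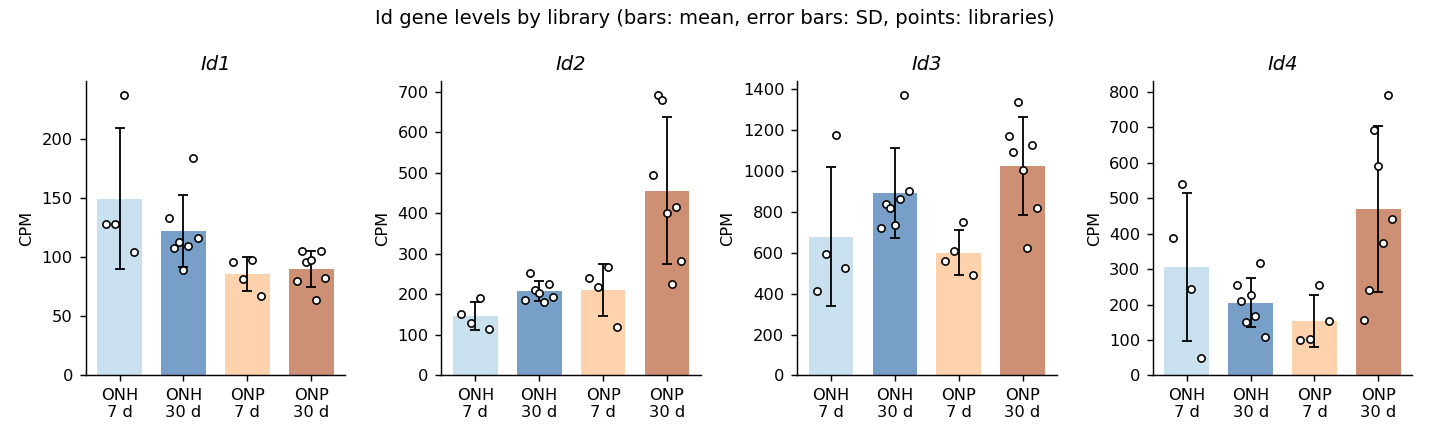
Levels of the 4 Id genes in CPM (vertical axis, from 0) in the ONH and ONP at 7 and 30 days (7 d, 30 d). Bars are group means, error bars are SD and points are libraries (n = 4 at 7 days, n = 7 at 30 days). Id2, Id3 and Id4 were higher at 30 days in the ONP, where their means were 456, 1024 and 469 CPM, and Id1 had means of 85.5 and 89.9 CPM at 7 and 30 days there.

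The comparison of 30 with 7 days in the ONP asks how the genes changed as the injury went on. Id2, Id3 and Id4 rose. The 3 members called were all higher at 30 days, against 17.0% of the 15491 genes tested that were called in either direction (7.82% higher and 9.21% lower). Id4 rose 2.998-fold (log2FC = 1.58, SE 0.43, edgeR adjusted p = 0.0269), from 153 ± 72.9 CPM (SD, n = 4) to 469 ± 234 CPM (n = 7). Id2 rose 2.11-fold (log2FC = 1.08, SE 0.32, adjusted p = 0.0385) and Id3 1.66-fold (log2FC = 0.74, SE 0.19, adjusted p = 0.0234). Id1 had a log2FC of 0.04 (SE 0.15, adjusted p = 0.891). No ligand passed: the log2FC was 0.60 for Bmp4 (SE 0.35, adjusted p = 0.249), -0.06 for Bmp6 (adjusted p = 0.958) and -0.70 for Bmp7 (SE 0.50, adjusted p = 0.355). Of the receptors, Bmpr1a was nearest to the threshold (log2FC = 0.60, SE 0.22, adjusted p = 0.0831), while Bmpr1b was at 0.33 and Bmpr2 at -0.17. The median log2FC of the 10 members was 0.47, beside -0.01 over all genes tested. At an unadjusted p under 0.05 there were 4 members, the 3 Id genes and Bmpr1a, beside 32.6% of genes, and DESeq2 called the same 4, beside 20.2%. No member had groups that did not overlap, beside 12.1% of all genes. These calls depended on single libraries at 7 days: without ONP library 1, 2 or 6, none of the 3 genes passed, with adjusted p-values of 0.0530 to 0.101 and log2FC of 0.67 or more in those fits. Without library 5 Id3 and Id4 still passed, Bmpr1a passed too and Id2 did not, and Id2 also missed the threshold without replicate 1, 2, 3, 4 or 6 at 30 days. Oligodendrocyte markers moved with this comparison, as 8 of 10 were lower at 30 days in the ONP, while 1 of 10 astrocyte markers was higher and 1 lower. Their part in the Id result was not tested.

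Across the other genes of the pathway, 4 of 46 tested fell between 7 and 30 days in the ONP, beside 9.21% of all genes called lower. They were Eng, a co-receptor (log2FC = -1.58), Crim1, an extracellular BMP regulator (-0.77), Tcf4, a bHLH E protein that Id proteins bind (-0.49), and Olig1, a bHLH factor of the oligodendrocyte lineage (-0.66). Eng is also an endothelial gene, and 4 of 7 endothelial and 2 of 5 tested mural markers were called lower in the same comparison. The endothelial sum was 74.9 to 120 CPM in the ONP at 7 days and 9.24 to 76.4 CPM at 30 days, and its part in the Eng value was not tested. None of the Smads passed. The log2FC of Smad1, Smad5 and Smad9, which carry the BMP signal, was -0.05, 0.07 and 0.60, that of their partner Smad4 was -0.07, and that of the inhibitory Smad6 and Smad7 was 0.64 and -0.85.

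In the ONH, no member passed between 30 and 7 days, beside 0.0% of the 15668 genes tested. By DESeq2, limma-voom and limma on the deposited log2 values the number of members called was also 0, beside 2.48% of genes called by DESeq2. Without library 5 of the ONH at 7 days edgeR called 167 genes, no member among them. At an unadjusted p under 0.05 there were 4 members, Bmp6, Bmp7, Bmpr2 and Id2, beside 13.9% of all genes. Bmp7 had the lowest value, at a log2FC of -1.49 (SE 0.60, 95% interval -2.77 to -0.20, edgeR adjusted p = 0.301), and Bmp6 was at -1.33 (SE 0.51, adjusted p = 0.286). Bmp4 was at -0.93 (SE 0.49, adjusted p = 0.409). The receptor Bmpr2 was at 0.69 (SE 0.26, 95% interval 0.13 to 1.24, adjusted p = 0.277), and Bmpr1a and Bmpr1b were at 0.33 and 0.25. Id2 was at 0.50 (SE 0.17, 95% interval 0.14 to 0.87, adjusted p = 0.240), Id3 at 0.39, Id1 at -0.30 and Id4 at -0.56. The ligand values depended on library 6 at 7 days: without it, the log2FC was -0.15 for Bmp4, -0.72 for Bmp6 and -0.39 for Bmp7. In the same comparison all 6 fibroblast and meninges markers were at an unadjusted p under 0.05 (median log2FC -1.51), as were 4 of 6 mural (-1.66) and 4 of 7 endothelial markers (-1.98), though none passed after adjustment. Their part in the ligand values was not tested. The members had a median log2FC of -0.03, beside -0.02 over all genes, and none had groups that did not overlap (2.25% of all genes). Of the other pathway genes, 0 of 46 passed. The Smads were at -0.27 (Smad1), 0.32 (Smad5), 0.16 (Smad9), 0.18 (Smad4), -1.04 (Smad6) and -0.03 (Smad7).

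The difference between the regions in the 30 vs 7 day change was tested as an interaction (ONP minus ONH) over all 22 libraries. No member passed, beside 0.543% of the 16748 genes tested, and 3 were at an unadjusted p under 0.05 (Bmp4, Bmpr2 and Id4), beside 12.6%. Id4 had the highest value, at 2.15 (SE 0.66, edgeR adjusted p = 0.146). DESeq2 called Id4 (log2FC = 2.18, adjusted p = 0.0345), beside 2.28% of genes, and edgeR called it without library 6 of the ONH at 7 days (2.53, adjusted p = 0.0362). Most fits did not call Id4: it passed in 2 of 8 alternatives, with values of 1.64 to 2.56. Of the 22 edgeR fits with 1 library left out, 21 did not call it. Its lowest value there was 1.73, without library 3 of the ONH at 7 days, and the adjusted p-values reached 0.293. The value of Bmp4 was 1.53 (SE 0.64, adjusted p = 0.321) and that of Bmpr2 was -0.85 (SE 0.35, adjusted p = 0.307). Id2, which passed between the times in the ONP alone, had an interaction of 0.58 (adjusted p = 0.549), and Id3 one of 0.35. That the Id genes rose in the ONP and not in the ONH was therefore not shown as a difference between the regions. The values of Bmp6, Bmp7, Bmpr1a, Bmpr1b and Id1 were 1.27, 0.78, 0.27, 0.09 and 0.34. None of the 50 other pathway genes tested passed, the Smads included, of which Smad6 was at 1.68 and Smad7 at -0.82.

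**Figure D3:**
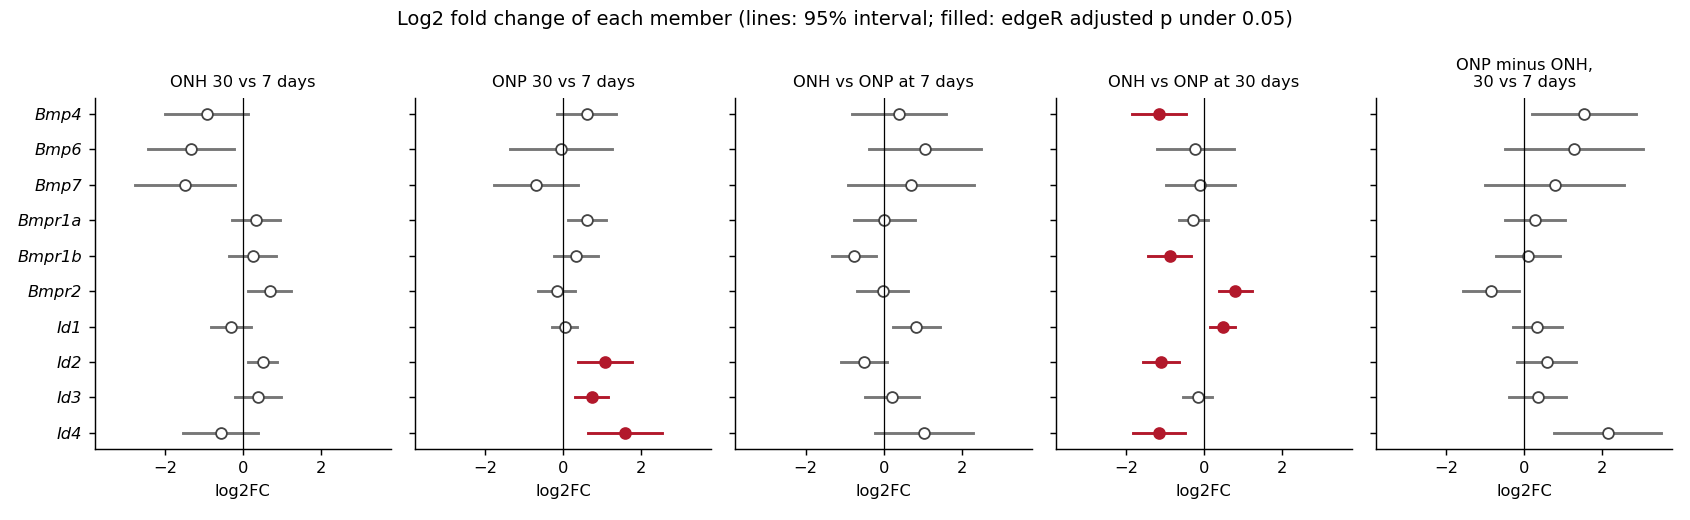
Log2 fold change (horizontal axis) of the 10 members in 5 comparisons, with the ratio of 30 to 7 days in each region, of ONH to ONP at each time, and the interaction. Points are edgeR estimates, lines are 95% intervals, and filled points passed an adjusted p under 0.05. Filled points are the 3 Id genes in the ONP over time and 6 members between the regions at 30 days.

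At 30 days the regions were compared with 7 libraries each, and 6 of the 10 members passed, beside 41.8% of the 15133 genes tested. A ligand, a type I receptor and a pair of Id genes were lower in the ONH than in the ONP: Bmp4, Bmpr1b, Id2 and Id4, beside 20.0% of genes called lower. The type II receptor Bmpr2 and Id1 were higher in the ONH, beside 21.8% of genes called higher. Bmp4 was 2.22-fold lower in the ONH (log2FC = -1.15, SE 0.32, edgeR adjusted p = 0.0099), at 10.6 ± 5.39 CPM against 24.4 ± 10.9 CPM (SD, n = 7 each). Bmpr1b was 1.84-fold lower (log2FC = -0.88, SE 0.26, adjusted p = 0.0126), at 38.8 ± 13.5 against 73.2 ± 27.0 CPM. Bmpr2 was 1.74-fold higher (log2FC = 0.80, SE 0.20, adjusted p = 0.0043), at 28.1 ± 7.05 against 16.5 ± 4.68 CPM.

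Among the Id genes, Id2 was 2.14-fold lower in the ONH (log2FC = -1.10, SE 0.22, edgeR adjusted p = 9.0e-04), at 208 ± 25.3 against 456 ± 181 CPM (SD, n = 7 each). Id4 was 2.22-fold lower (log2FC = -1.15, SE 0.32, adjusted p = 0.0085), at 205 ± 69.8 against 469 ± 234 CPM. Id1 was 1.39-fold higher (log2FC = 0.48, SE 0.15, adjusted p = 0.0184), at 122 ± 30.4 against 89.9 ± 15.4 CPM. The other 4 members did not pass: Bmp6 was at a log2FC of -0.22, Bmp7 at -0.09, Bmpr1a at -0.28 and Id3 at -0.16, with adjusted p-values between 0.215 and 0.877. The same 6 were called by DESeq2, beside 36.7% of genes, and were those at an unadjusted p under 0.05, beside 49.6%. The 6 calls were kept in each alternative and in each fit with 1 library left out. The median log2FC of the 10 members was -0.25, beside -0.01 over all genes. For no member were the regions apart in range, beside 16.5% of all genes.

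Since the ONH and ONP were taken from the same animals, each member was also read within the 7 pairs of equal replicate number at 30 days. That equal numbers mark the same pool of mice was assumed. Bmp4 was lower in the ONH in 7 of 7 pairs, with log2 ratios of -1.90 to -0.58. Bmpr1b was lower in 7 of 7 (-1.44 to -0.08) and Id2 in 7 of 7 (-1.69 to -0.31). Bmpr2 was higher in the ONH in 7 of 7 pairs (0.49 to 1.29), and Id1 in 6 of 7. Id4 was lower in 6 of 7 pairs, and in replicate 1 it was higher in the ONH (log2 ratio 0.72). Bmp6, Bmp7, Bmpr1a and Id3 were split, with 4, 3, 2 and 3 of 7 pairs higher in the ONH. The smallest ratios of Bmpr1b and Id2 were both from replicate 5. Its ONP library held the lowest Id1, Id2, Id3 and Bmpr1b of that group, together with the highest oligodendrocyte sum (86196 CPM) and the lowest astrocyte sum (16008 CPM). At 30 days 8 of 10 oligodendrocyte markers and 3 of 10 astrocyte markers were called lower in the ONH, 1 of 10 astrocyte markers was called higher, and all 6 pigment cell and all 5 photoreceptor markers were called higher. Oligodendrocyte precursor markers were called lower in the ONH in 4 of 5 cases (median log2FC -2.02, against -0.97 for the oligodendrocyte markers), with sums of 100 to 232 CPM in the ONH and 461 to 789 CPM in the ONP. The part of these cells in the difference between the regions was not tested.

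**Figure D4:**
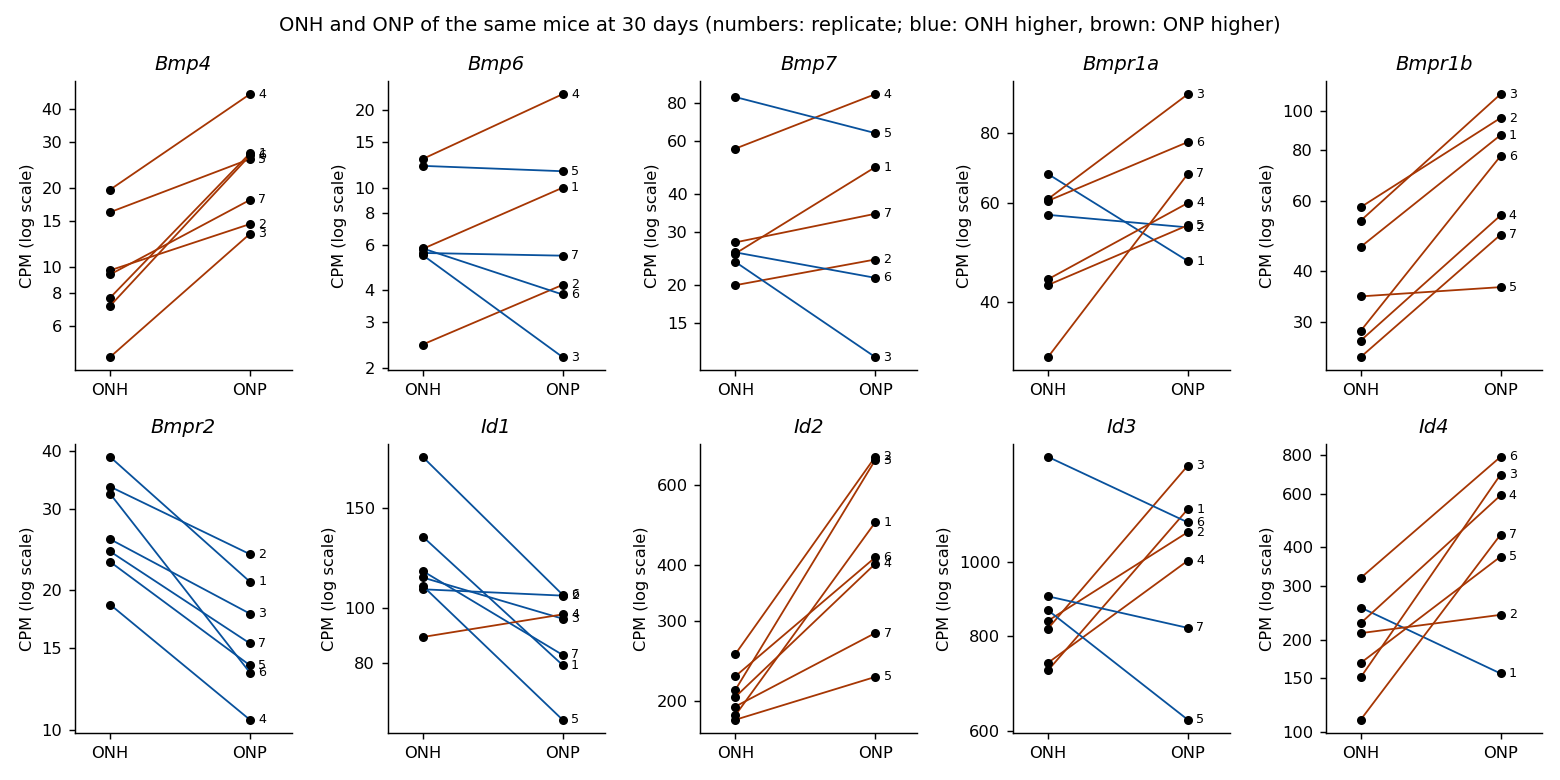
Level of each member in the ONH and ONP at 30 days in CPM (log scale), with a line joining libraries of equal replicate number, assumed to be of the same mice. Blue lines are pairs in which the ONH was higher and brown lines pairs in which the ONP was higher. Bmp4, Bmpr1b and Id2 were higher in the ONP in 7 of 7 pairs and Bmpr2 in the ONH in 7 of 7.

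Of the other pathway genes, 23 of 45 tested passed between the regions at 30 days, with 12 higher and 11 lower in the ONH. Over all genes tested, 41.8% passed in this comparison, 21.8% higher and 20.0% lower, and the counts here were not tested against these shares. Extracellular BMP regulators were higher in the ONH where they passed (5 of 12 tested, 0 lower). Among them were Fstl1 (log2FC = 1.62), Fstl3, a follistatin relative (1.68), Chrdl1, a BMP antagonist of the chordin family (2.24), and Sostdc1, another antagonist (3.17). The Sostdc1 means were 3.52 CPM (SD 3.88) in the ONH and 0.401 CPM (SD 0.237) in the ONP. That ONP level is close to the limit of 3 counts, so the size of the Sostdc1 fold is uncertain. Bambi, a decoy receptor, was at 1.45, and the ligand Gdf11 was at 0.88. The co-receptors Rgma and Rgmb were lower, at -0.70 and -0.62. Of the signal-carrying Smads, Smad1 was lower in the ONH (log2FC = -0.69, edgeR adjusted p = 1.4e-04) and so was Smad9 (-0.80, adjusted p = 0.0268), while Smad5 was at 0.18 (adjusted p = 0.229). Smad4 was higher (0.58, adjusted p = 0.0017), as were the Smad inhibitors Smurf2 (0.72) and Ski (0.43). Smad6 was at 0.09 and Smad7 at -0.39, and neither passed. The bHLH genes that Id proteins act on were lower in the ONH where they passed (6 of 8 tested, 0 higher), among them Olig2 at -2.54 and Olig1 at -1.17, the Olig genes being markers of the oligodendrocyte lineage.

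At 7 days, with 4 libraries per region, no member passed between the regions, beside 13.2% of the 14752 genes tested (6.34% called higher and 6.81% lower). At an unadjusted p under 0.05 there were 2 members, Bmpr1b and Id1, beside 28.9% of all genes. The same 2 were the members whose regions did not overlap, beside 21.7% of all genes. Id1 was at a log2FC of 0.84 (SE 0.27, edgeR adjusted p = 0.0670), from 149 ± 59.4 CPM in the ONH against 85.5 ± 14.3 CPM in the ONP (SD, n = 4 each). Bmpr1b was at -0.76 (SE 0.26, adjusted p = 0.0766), from 32.9 ± 11.6 against 56.8 ± 6.57 CPM. Beside 18.9% of all genes, DESeq2 called both (Id1 at 0.83, adjusted p = 0.0345, and Bmpr1b at -0.78, adjusted p = 0.0291). Without library 1 of the ONH edgeR called Bmpr1b (-0.95, adjusted p = 0.0423), and without library 6 of the ONH it called Id1 (0.97, adjusted p = 0.0347) and Id4 (1.36, adjusted p = 0.0274). Other libraries moved these values the other way. Without library 5 of the ONH Id1 was at 0.48 and Bmpr1b at -0.62, and without library 3 of the ONH Id4 was at 0.60. Over the 8 fits with 1 library left out, edgeR adjusted p-values reached 0.184 for Id1, 0.169 for Bmpr1b and 0.548 for Id4. The table columns of both regions share the numbers 1, 5 and 6, which no source ties to the replicates of the labels, and in these 3 pairs Id1 was higher and Bmpr1b lower in the ONH each time. With those numbers as a block, neither passed (adjusted p = 0.124 and 0.134 by edgeR), and Bmp6 did (log2FC = 1.59, adjusted p = 0.0491), while in the same 6 libraries without the block no member passed by edgeR (Bmp6 at 1.39, adjusted p = 0.274). Both fits were chosen after seeing the data. With all libraries Id4 was at 1.03 (SE 0.57, adjusted p = 0.262), the opposite sign of its value at 30 days. In the 3 pairs of shared column numbers Id4 was higher in the ONH in 1 and lower in 2. With those numbers as a block it was at 0.10 (edgeR adjusted p = 0.944). Bmp6 was at 1.07, Bmp7 at 0.70 and Bmp4 at 0.39, and without library 6 Bmp4 and Bmp7 were at -0.40 and -0.42. The receptors Bmpr1a and Bmpr2 were at 0.02 and -0.02, and Id2 and Id3 at -0.49 and 0.22. The members had a median of 0.30, beside 0.07 over all genes. At this time 3 of 5 oligodendrocyte precursor markers were called lower in the ONH (median log2FC -2.04). All 10 oligodendrocyte markers were lower in the ONH, and all 6 pigment cell and all 5 photoreceptor markers were higher, with their part in these values not tested.

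Of the other pathway genes, 8 of 44 passed between the regions at 7 days, beside 13.2% of all genes tested (6.34% higher and 6.81% lower). Higher in the ONH were Bambi (log2FC = 1.76), the inhibitory Smad6 (1.79), Fstl1 (1.51), Fstl3 (1.81), Sostdc1 (4.76) and Fst. The Sostdc1 means were 7.99 CPM in the ONH and 0.281 CPM (SD 0.429) in the ONP. The ONP level is close to the limit of 3 counts, so the size of this fold is uncertain. Fst (follistatin, which traps activins and BMPs) had means of 1.44 CPM in the ONH and 0.01 CPM in the ONP, below the limit of 3 counts, so no fold is given. Lower in the ONH were Olig1 (-1.92) and Olig2 (-1.44). Smad1 was at -0.45, Smad5 at -0.03, Smad9 at -0.33, Smad4 at 0.35 and Smad7 at -1.18 (edgeR adjusted p = 0.0523), none of which passed. As levels, Smad1 had means of 49.1 CPM in the ONH at 7 days, 40.4 in the ONH at 30 days, 68.2 in the ONP at 7 days and 67.5 in the ONP at 30 days.

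Across the 22 libraries, with group means removed, the ligands varied together in log2 CPM. Pearson's r was 0.93 for Bmp6 and Bmp7 (Spearman's rho 0.95, r 0.93 once the 2 libraries farthest from the median of the first gene were left out), 0.87 for Bmp4 and Bmp7 (0.80, 0.80) and 0.83 for Bmp4 and Bmp6 (0.79, 0.77). Id1 and Id3 were at r = 0.81 (rho 0.67, r 0.63 without 2), and Id2 and Id3 at 0.66 (0.70, 0.56), whereas Id4 followed neither Id2 (r = 0.08) nor Id3 (0.13). Id4 was instead near Bmpr1a, at r = 0.76 (0.80, 0.72). Bmp7 and the Id genes ran in opposite directions, though more weakly for Id4. The r was -0.61 for Id1 (rho -0.60, r -0.56 without 2), -0.59 for Id2 (-0.65, -0.58) and -0.55 for Id3 (-0.51, -0.59). For Id4 it was -0.50 (-0.41, -0.28). These values are descriptions over 22 libraries that share depth and composition, and no test was made.

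Ligands and receptors also followed markers of cell types in the same libraries. Bmp6 and Bmp7 followed the summed fibroblast and meninges markers (r = 0.81 for each, rho 0.81 and 0.79), and Bmp4 followed the oligodendrocyte sum (r = 0.71, rho 0.72). No ligand was tied to a single sum. Bmp6 and Bmp7 were also at r = 0.64 and 0.67 with the oligodendrocyte sum, 0.63 each with microglia, and 0.63 and 0.57 with endothelial markers. Bmp4 was also at 0.63 with pigment cell, 0.60 with fibroblast and 0.56 with microglia markers. Fibroblast and meninges markers summed to 663 to 2002 CPM in the ONH at 7 days, 397 to 879 in the ONH at 30 days, 167 to 665 in the ONP at 7 days and 88.1 to 642 in the ONP at 30 days. Bmpr1b followed the astrocyte sum (r = 0.87, rho 0.88) and ran against the oligodendrocyte (r = -0.77) and microglia (r = -0.78) sums. Id2 was at r = 0.62 with the astrocyte sum (rho 0.51), and Id1, Id3 and Id4 were at 0.16, 0.23 and 0.21.

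**Figure D5:**
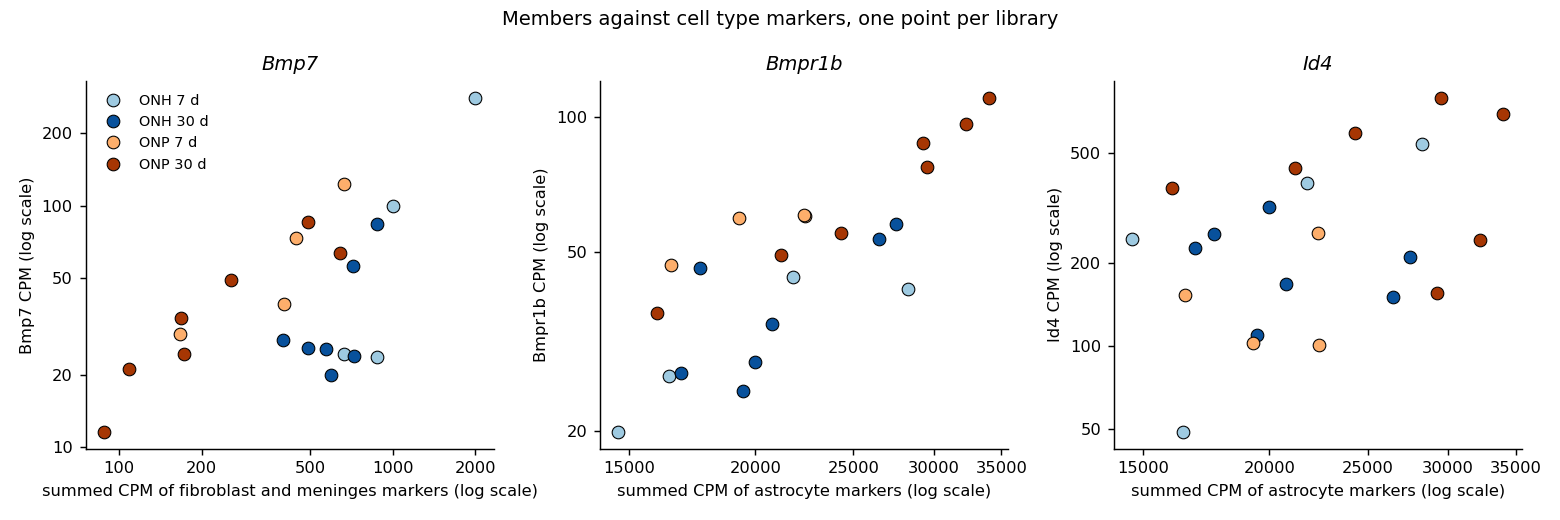
Level of Bmp7, Bmpr1b and Id4 in CPM (vertical axes, log scale) against the summed CPM of marker genes (horizontal axes, log scale), with 1 point per library coloured by group. Bmp7 is set against fibroblast and meninges markers, and Bmpr1b and Id4 against astrocyte markers. With group means removed, r was 0.81 for Bmp7, 0.87 for Bmpr1b and 0.21 for Id4 (n = 22).

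Among 9385 genes with a mean of at least 10 CPM, the 3 most like each member (highest r over the 22 libraries, group means removed) were as follows. Aldh1a2, Pde1a and Gstm2 were nearest to Bmp7 (r = 0.95 each), Pcolce (0.94), Bmp7 and Tfpi (0.93 each) to Bmp6, and Pde1a, Phldb2 and Bmp7 (0.87 each) to Bmp4. Bmpr1b was nearest to Dkk3, Ntrk2 and Slc1a3 (0.97 each), of which Slc1a3, a glutamate transporter, is in the astrocyte marker list. Ptprs (0.87), Kremen1 (0.86) and Eps8 (0.84) were nearest to Bmpr1a, and Rps29, Atp5k (0.87 each) and Rps27 (0.86) to Bmpr2. For the Id genes, the nearest were 2810001G20Rik (0.86), Fabp7 (0.84) and Nsmce1 (0.83) for Id1, Ormdl1, Tmem107 (0.82 each) and Myo10 (0.81) for Id2, Fabp7 (0.90), Tmem208 (0.89) and Ramp1 (0.88) for Id3, and Clip4 (0.96), Prkar2a (0.94) and Six3 (0.93) for Id4. Fabp7, a fatty acid binding protein of radial glia and astrocytes, was shared by Id1 and Id3, and Pde1a by Bmp4 and Bmp7.

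In the annotation (GENCODE M21, GRCm38) the members lie at chr14:46383520-46390669 (Bmp4), chr13:38345107-38500302 (Bmp6), chr2:172868012-172940321 (Bmp7), chr14:34410734-34503341 (Bmpr1a), chr3:141837136-142169425 (Bmpr1b), chr1:59763400-59879014 (Bmpr2), chr2:152736251-152737410 (Id1), chr12:25093799-25097140 (Id2), chr4:136143497-136145755 (Id3) and chr13:48261228-48266026 (Id4). Exons of 4 members overlap those of another gene, and the library kit does not mark strand, so shared reads could not be told apart. Bmp6 overlaps Txndc5, which had a mean of 172 CPM, far above Bmp6 itself. Id4 overlaps Gm49291 (7.50 CPM) and A330033J07Rik (2.62 CPM), and the partners of Bmp4 and Bmpr1a were near 0.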

How the data were processed

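RNA was taken from the HA-tagged ribosomes of astrocytes and made into libraries with a SMART-Seq HT kit for very low input, which does not mark strand. All samples were prepared and sequenced together, and no batch is labelled. Per the study's methods, paired reads of 150 bases were aligned with STAR 2.6.1d in bcbio-nextgen 1.2.8-1c563f1 and quantified with Salmon 0.14.2 on Ensembl 94 transcripts (mm10). The expected counts per gene that the authors deposited are whole, not normalized numbers. A table of log2 values that the authors deposited, made by variance stabilizing transformation (DESeq2 1.34.0), was used only in an alternative test.

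The tests were run on the expected counts with edgeR 4.0.16 (R 4.3.3), after filterByExpr and TMM scaling, as two-sided quasi-likelihood tests adjusted by Benjamini-Hochberg over every gene in the fit (15668 in the ONH and 15491 in the ONP over time, 15133 and 14752 between regions at 30 and 7 days, and 16748 in the interaction). A gene was called at an adjusted p-value under 0.05, with no fold cutoff. All 10 members were tested in each comparison. Each fit took only the groups compared, and the interaction took all 4. The comparisons over time and between regions share groups, so they are not independent of each other. Positions and transcript lengths are from GENCODE M21, which matched 29351 of the 29367 genes. For levels per kb, the merged length of all exons was an alternative to the longest transcript.

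Depth ranged from 16292489 to 33307092 counts, and a limit of 3 counts was taken as detectable. It covers counting error only, as reads without molecular identifiers are not independent molecules. No pair of libraries of a group agreed within sampling noise (lowest chi-square per gene 22.6). The table columns of 7 days matched a group but no single replicate of the labels, so those libraries are named by the number in the table. At 30 days the replicate numbers pair the regions because the tissue came from the same mice, and deviations from the group means of same-numbered libraries correlated in all 7 pairs (r = 0.147 to 0.579), with the best match in the same number for 4 of 7. At 7 days the columns share the numbers 1, 5 and 6 between regions (r = 0.0569 to 0.176), but no source ties these numbers to the replicates of the labels.

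The members and the gene lists were chosen with earlier results of these data known, so no p-value adjusted over a list is given. Named in each comparison were all 10 members, the other genes of a list of 61 ligands, receptors, Smads, regulators, targets and bHLH partners that passed (at most 15, by smallest adjusted p-value), and Smad1, Smad5, Smad9, Smad4, Smad6 and Smad7. Of that list 59 were analysed (Bmp10 and Gdf2 were not analysed here), and the result of 1 gene that passed is not reported here. The 3 genes most like each member were those with the highest r of log2 CPM over the 22 libraries with group means removed. Alternatives were DESeq2 1.42.0, limma-voom with sample weights and limma 3.58.1 on the deposited log2 values, 2 other scalings (RLE and library size only), 2 other filters (1 count in all, or 10 in every library), all 4 groups in 1 fit, a replicate block at 30 days, and fits without each library. Leaving out the 2 ONH libraries with most photoreceptor RNA and a block on the 3 column numbers that both regions share at 7 days, with the same 6 libraries also fitted without it, were chosen after seeing the data. The scripts were tested on simulated data.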

Additional observations from a re-analysis of the deposited data

Results flagged for a closer look

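In 3 of the 40 groups of libraries (10 members in 4 groups), 1 library stood farther from the others than Dixon's 95% limit allows, where chance gives about 5% of groups. Bmp4 was at 45.5 CPM in replicate 4 of the ONP at 30 days, while the other 6 libraries lay between 13.4 and 27.1 CPM. Bmpr1b was at 46.9 CPM in library 6 of the ONP at 7 days, against 59.5 to 60.4 CPM in the other 3. Id3 was at 1371 CPM in replicate 6 of the ONH at 30 days, against 720.4 to 900.4 CPM in the other 6. No cause was tested.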

How the results depend on the processing

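Members were called the same way in most alternatives, and the cause of each exception was not tested. For levels per kb, merged exons in place of the longest transcript stayed within the SD in 34 values and moved further in 6. These were Bmpr2 (ONH at 30 days, ONP at 7 days), Id2 (ONH at 30 days) and Id3 (ONH at 30 days, ONP at 7 and 30 days). In the log2FC values 416 of the alternatives kept direction and side of the threshold, 14 changed sign, 9 passed newly and 1 no longer passed, and with 1 library left out the numbers were 610, 30, 5 and 15. The 6 members between the regions at 30 days were called throughout, also with the replicate block (6 members; -1.19 for Bmp4, -0.86 for Bmpr1b, 0.82 for Bmpr2, 0.47 for Id1, -0.996 for Id2 and -1.06 for Id4), which changed no other call. At 7 days no block on the labels' replicate numbers could be made, as the columns do not carry them. A replicate block on the 3 column numbers that both regions share, chosen after seeing the data, called 1 member (Bmp6, 1.59) and left Bmpr1a at -0.18 and Bmpr2 at 0.31, and the same 6 libraries without it called 0 and gave -0.073 and 0.33 (879 genes called with the block and 913 without). In the ONP over time, DESeq2 and library size only called 4 members, adding Bmpr1a, and all 4 groups in 1 fit called 2, with an adjusted p of 0.0688 for Id3. With 1 library left out the count ran from 0 to 3. Between the regions at 7 days, DESeq2 called 2 members, all 4 groups in 1 fit 1 (Id1) and library size only 1 (Id1), and the count without 1 library ran from 0 to 2. For the interaction, DESeq2 called 1 (Id4), as did leaving out the 2 ONH libraries with most photoreceptor RNA, an alternative chosen after seeing the data (Id4 at 2.56, adjusted p = 0.0398), and without 1 library the count ran from 0 to 1. Signs also changed for Bmp6 in the ONP over time with library size only (0.062), Bmp6 and Bmp7 between regions at 30 days with limma-voom (0.10 and 0.19), and Bmp7 in the interaction without the 2 libraries (-0.19). Between regions at 7 days they changed for Bmpr1a with DESeq2 (-0.00067), all 4 groups (-0.0017), limma on the log2 values (-0.033) and no filter (-0.0073), Bmpr2 with library size only (0.10) and Id3 with limma-voom (-0.081). With 1 library left out, the ranges that crossed 0 were Id1 in the ONH over time (-0.44 to 0.042), Bmp6 (-0.54 to 0.60), Bmpr2 (-0.28 to 0.0036) and Id1 (-0.044 to 0.14) in the ONP over time, and Bmp6 (-0.43 to 0.24) and Bmp7 (-0.42 to 0.18) between regions at 30 days. At 7 days they were Bmp4 (-0.40 to 0.71), Bmp7 (-0.42 to 1.16), Bmpr1a (-0.31 to 0.24), Bmpr2 (-0.27 to 0.15) and Id3 (-0.24 to 0.39), and in the interaction Bmp7 (-0.32 to 1.32), Bmpr1a (-0.013 to 0.51), Bmpr1b (-0.044 to 0.26), Id1 (-0.0065 to 0.51) and Id3 (-0.090 to 0.57). Over all genes, the calls of edgeR and of alternatives differed by over 1.5 times in the ONH over time (0 with edgeR, 446 with DESeq2, 292 with all 4 groups), in the ONP over time (2638 and 1189 with all 4 groups), between regions at 7 days (1940, 3203 with DESeq2 and 3785 with all 4 groups) and in the interaction (91, 409 with DESeq2, 55 with limma-voom and 50 with no filter). With 1 library left out, the calls ran from 0 to 167 in the ONH over time (167 without 7 day library 5), 1439 to 3214 in the ONP over time (1439 without 7 day library 6), 1102 to 2379 between regions at 7 days (1102, 1147 and 1173 without ONP library 6, 2 and 5) and 22 to 318 in the interaction (318 without ONH 7 day library 5, and 22 without ONP 7 day library 1, 2 or 6). Library size only moved the median of all genes by 0.11 in the ONP over time, 0.18 between regions at 7 days and 0.16 in the interaction, and genes called higher and lower went from 1211 and 1427 to 1934 and 966 in the ONP over time, and from 936 and 1004 to 1392 and 840 at 7 days.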
